A study of Junonia coenia with 24 samples.

Results

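Open chromatin of the hindwing of the buckeye butterfly Junonia coenia was compared between pupae labelled 72 h after pupation and larvae labelled 5th instar, the last larval instar before metamorphosis. The members are all intervals of the hindwing peak table that held enough reads for a test over the 12 hindwing libraries, 258640 of 488675 intervals (52.9%), on 893 of 959 contigs. The whole study has 24 ATAC-seq libraries of left and right forewings and hindwings, 3 for each of 8 groups of wing and labelled stage (5th instar, prepupa, 72 h and 6 d, a group whose titles say day 7). The title names the transcription factors spineless and EcR, but no library used here carries a treatment, and all animals were reared at about 27 °C. The tissue was whole wing, a mixture of cell types, and the labels do not say which libraries came from a left or a right wing or from how many animals.

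In ATAC-seq a hyperactive Tn5 transposase cuts DNA that is not covered by nucleosomes or other proteins and inserts sequencing adapters there, so the reads in an interval count how accessible its chromatin is. Butterfly wings grow as discs inside the larva, turn outward at pupation, and then differentiate scale cells in the pupa. Pulses of the steroid hormone ecdysone time these steps through its receptor EcR, a nuclear receptor that binds regulatory DNA. Opening and closing of such regions is one readout of this change of programme. In whole tissue, more cells with an open region and a more open region per cell cannot be told apart. No genome or gene annotation was used here, so intervals are given by contig and position, and no tissue or cell type marker could be looked up.

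The 3 libraries labelled 72 h held 8183863 to 10652323 reads in peaks and the 3 labelled 5th instar held 6977525 to 9442306. Spearman correlations were 0.723 to 0.768 within the groups and 0.517 to 0.56 between them over 209277 intervals, and no 2 libraries of a group agreed within sampling noise (chi-square per interval 2.44 to 4.94). The first principal component, 57.1% of the variance, separated the groups. The strongest 1% of intervals took 30.11% to 32.26% of the reads in the 72 h libraries, against 22.85%, 32.13% and 30.6% in 5th-instar replicates 1, 2 and 3, so replicate 1 was the least concentrated.

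The stage names carry a caution that touches every result. Over 125855 intervals matched between the wings, each hindwing library labelled 72 h was closest to the same-numbered forewing library labelled 6 d (Spearman 0.864 to 0.892), and its correlations with forewing libraries labelled 72 h were 0.615 to 0.642. Each hindwing library labelled 5th instar was closest to the forewing library of its own stage and replicate number (0.801 to 0.847). Whether the hindwing libraries labelled 72 h were collected at that time was not tested. Names are kept as the labels give them, and a rise or a fall below means a difference between the libraries labelled 72 h and those labelled 5th instar, with no claim on the hours between them.

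Accessibility differed widely between the hindwings of these groups, and on the TMM scale used here more intervals opened than closed. Of 258640 tested intervals, 35403 were called (13.7%) at an adjusted p under 0.05 by edgeR's quasi-likelihood F test with Benjamini-Hochberg adjustment. The libraries labelled 72 h were higher at 22482 intervals (8.69%) and lower at 12921 (5%). The median log2 change was 1.87 among those that rose, with quartiles of 1.47 and 2.46, and -1.82 among those that fell, with quartiles of -2.38 and -1.43, while the median of all tested intervals was -0.01. A change of at least 4-fold was found at 9647 rising and 5222 falling intervals, one of at least 8-fold at 2682 and 1357, and one of at least 16-fold at 531 and 330. The smallest change called in this fit was 0.81 on the log2 scale.

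The excess of rises depends on how libraries are scaled. Counts were scaled by TMM factors, which set the bulk of intervals equal between libraries. With library totals alone the median change of all intervals moved to -0.26, and 16659 intervals were higher and 20062 lower in the libraries labelled 72 h, so rises made up 45.4% of calls instead of 63.5%. Relative to TMM-scaled libraries no interval called in one direction was called in the other under that scale. All 3 libraries of a group lay above all 3 of the other at 77811 intervals (30.1%), 41784 with the 72 h libraries higher and 36027 with them lower. Of the 35403 calls, 33836 had no overlap between the groups and 1567 did.

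**Figure D1:**
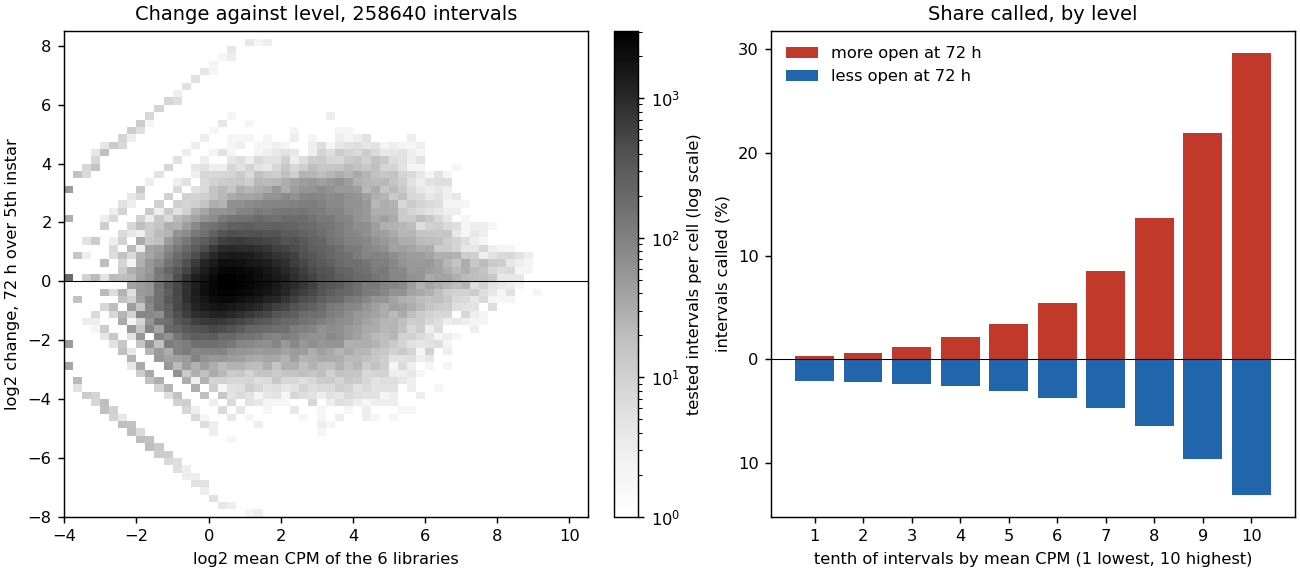
Left, log2 change of hindwing libraries labelled 72 h over those labelled 5th instar (vertical axis) against log2 mean CPM of the 6 libraries (horizontal axis), with the number of tested intervals per cell in grey on a log scale; the diagonal lines at the left edge are intervals with few or no reads in one group. Right, percent of tested intervals called in each of the 10 classes by mean CPM, with rises (29.6% in the highest class, 0.344% in the lowest) above the line and falls (13.1% and 2.08%) below it.

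Strong intervals were called more often than weak ones, and rises and falls were spread differently over them. CPM here is the read count scaled for depth with TMM factors, a level that also grows with interval width, so levels are compared between libraries and not between intervals. Intervals were put in 10 classes of equal size by mean CPM over the 6 libraries. In the highest class (8.06 CPM or more), 29.6% rose and 13.1% fell. In the lowest class (0.759 CPM or less), 0.344% rose and 2.08% fell. Precision followed the same order, since the median standard error of the log2 change was 0.34 in the highest class and 0.8 in the lowest, where the median interval held 9 reads over the 72 h libraries and 13 over the 5th-instar libraries.

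The share of calls that were rises was higher in stronger classes up to class 9. It was 14.2% in class 1 (89 rises and 537 falls), 45.6% in class 4, 59.4% in class 6, 69.5% in class 9 and 69.3% in class 10 (7664 rises and 3398 falls). With library totals as the scale it was 6.17% in class 1 and 58.8% in class 10, and with offsets fitted by loess over the level it was 39.5% in class 1 and 61.6% in class 10. Class 1 thus held more falls than rises under these 3 scalings, and class 10 more rises than falls.

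Wider intervals were also called more often, up to a width of 800 bp. The median width was 329 bp for rising, 360 bp for falling and 238 bp for uncalled intervals. Among the 84688 intervals from 100 bp to under 200 bp, 2.9% rose and 2.03% fell. Among the 114720 from 200 bp to under 400 bp, 10.7% rose and 4.97% fell, with rises at 68.4% of the calls. The shares were highest from 400 bp to under 800 bp, where 13.7% of 44134 intervals rose and 9.54% fell. From 800 bp up, 12.2% of 13614 intervals rose and 9.45% fell. Width and read count go together in these data (median of 1.12 CPM from 100 bp to under 200 bp and 13.1 CPM from 800 bp), and their parts in the share called were not tested.

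The strongest intervals that rose at least 4-fold, named 1 per contig by mean CPM in the libraries labelled 72 h, were broad regions of 1164 to 2868 bp. The interval at contig 000001F, 2122186 to 2125053, had 456, 384 and 438 CPM in the 72 h libraries, against 24.2, 26.4 and 33.4 CPM in the 5th-instar libraries. The groups were far apart and each was even within itself, and the log2 change was 3.93 with a standard error of 0.34 (edgeR, adjusted p = 2.6e-07). On contig 000197F, 453770 to 455298 had 387, 348 and 218 CPM in the 72 h libraries and 11.3, 13.8 and 15.2 CPM in the 5th-instar libraries. This was the largest change of the 6, at 4.56 ± 0.38 on the log2 scale (SE; edgeR, adjusted p = 2.04e-07). Contig 000035F, 1425227 to 1427352, had 426, 341 and 488 CPM in the 72 h libraries and 35, 41 and 38.7 CPM in the 5th-instar libraries, a log2 change of 3.45 ± 0.35 (SE; edgeR, adjusted p = 9.15e-07).

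The remaining strong rises were smaller in fold. Contig 000129F, 1255440 to 1257030, carried the most reads, with 650, 564 and 533 CPM in the 72 h libraries and 77.3, 179 and 129 CPM in the 5th-instar libraries. Its log2 change was 2.18 ± 0.41 (SE; edgeR, adjusted p = 0.000854). On contig 000027F, 254158 to 255321 averaged 555 ± 80.6 CPM at 72 h and 105 ± 32.5 CPM at the 5th instar (SD, n = 3 each), and contig 000046F, 141894 to 144147, had 314 ± 34.6 CPM at 72 h and 69.8 ± 12.2 CPM at the 5th instar. Their log2 changes were 2.40 and 2.17 (edgeR, adjusted p = 0.000331 and 0.000465). Within the 5th-instar group, replicate 1 was the lowest library at each of these 6 intervals. The groups overlapped at none of them because the rule for naming required it.

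The strongest intervals that fell at least 4-fold, named in the same way by their mean CPM in the 5th-instar libraries, spanned 548 to 4389 bp. The interval at contig 000252F, 387830 to 390147, had 35.9, 29 and 29.2 CPM in the 72 h libraries, against 197, 372 and 327 CPM in the 5th-instar libraries. Its log2 change was -3.25 ± 0.36 (SE; edgeR, adjusted p = 2.21e-06), the largest of the 6 strongest falls. Contig 000177F, 568041 to 570320, had 47.5, 46.4 and 47.6 CPM in the 72 h libraries and 217, 458 and 382 CPM in the 5th-instar libraries, a log2 change of -2.90 ± 0.38 (SE; edgeR, adjusted p = 1.73e-05). The widest of the named regions, 4389 bp at contig 000051F, 129356 to 133744, had 90.6 ± 11 CPM at 72 h and 366 ± 111 CPM at the 5th instar (SD, n = 3 each), with a log2 change of -2.02 ± 0.37 (SE; edgeR, adjusted p = 0.000606).

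The standard deviation in CPM was larger at the 5th instar, where the level was higher, at each of these falling regions. Contig 000025F, 969577 to 972532, had 32 ± 4.42 CPM at 72 h and 233 ± 73.7 CPM at the 5th instar, and contig 000003F, 2071514 to 2074908, had 35.5 ± 2.23 CPM at 72 h and 233 ± 79.8 CPM at the 5th instar (SD, n = 3 each). Their log2 changes were -2.86 and -2.71 (edgeR, adjusted p = 1.09e-05 and 2.37e-05). Contig 000338F, 25297 to 25844, was the least precise, with 39.2, 56.9 and 74.7 CPM in the 72 h libraries and 282, 226 and 377 CPM in the 5th-instar libraries. Its log2 change was -2.37 ± 0.55 (SE; edgeR, adjusted p = 0.00518). Replicate 1 was the lowest 5th-instar library at 5 of the 6 strongest falls, 000338F being the other. None had overlapping groups, again because the rule for naming required it.

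Some of the intervals with the highest CPM did not pass the test. The 4 shown here were named by their mean level among uncalled intervals with a log2 change under 0.25 in size. Their high p-values follow from that choice. They were 2592 to 3638 bp wide, and CPM grows with width. Contig 000031F, 2189752 to 2193370, had 517, 389 and 481 CPM in the 72 h libraries and 281, 557 and 481 CPM in the 5th-instar libraries (log2 change 0.07 ± 0.4, SE). Contig 000199F, 71290 to 73881, had 440 ± 63.6 CPM at 72 h and 449 ± 142 CPM at the 5th instar. Contig 000023F, 2954565 to 2957214, had 409 ± 40 CPM at 72 h and 435 ± 154 CPM at the 5th instar, and contig 000073F, 1325241 to 1328878, had 404 ± 59.8 CPM at 72 h and 374 ± 129 CPM at the 5th instar (SD, n = 3 each). The adjusted p-values from edgeR lay between 0.9 and 0.977, with standard errors of 0.39 to 0.42. In the libraries labelled 6 d these 4 intervals had means of 63.4 to 122 CPM, below both groups compared here.

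**Figure D2:**
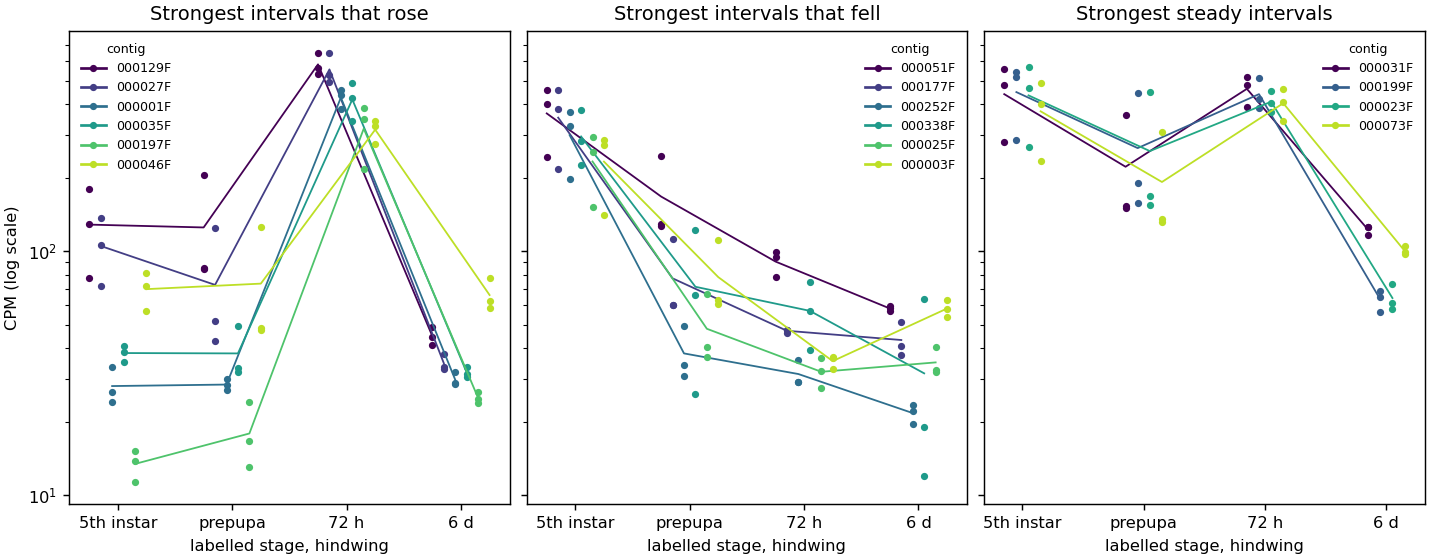
CPM on a log scale in each of the 12 hindwing libraries (points, 3 per stage) and their mean (lines) for the 6 strongest rises of at least 4-fold, the 6 strongest falls of at least 4-fold and the 4 strongest uncalled intervals with a log2 change under 0.25 in size, by labelled stage. The rises peak at the libraries labelled 72 h (means of 314 to 582 CPM) and the falls are highest at the 5th instar (means of 233 to 366 CPM).

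The largest relative changes were at weak intervals with almost no reads in one group, where the size of the change is bounded by depth. Floors for a group without reads are 3 counts over its 3 libraries, and floors and counting intervals cover counting error only. The interval at contig 000394F, 213667 to 213881, had 5.78, 4.94 and 7.72 CPM in the 72 h libraries (119 reads) and no read in the 5th-instar libraries, which makes it at least 43.1-fold higher (edgeR, adjusted p = 1.01e-05). All 3 libraries labelled 72 h held it at a like level. Contig 000132F, 972231 to 972497, was its opposite, with no read in the 72 h libraries and 5.48, 5.21 and 4.83 CPM in the 5th-instar libraries (109 reads), at least 33.4-fold lower (edgeR, adjusted p = 3.4e-05).

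Not all of these extreme rises were even over the libraries labelled 72 h. Contig 000068F, 415515 to 415737, had 85, 1 and 36 reads in 72 h replicates 1, 2 and 3 and none in the 5th-instar libraries, at least 44.2-fold higher over the group (edgeR, adjusted p = 0.00358). Contig 000410F, 250014 to 250482, had 97, 2 and 28 reads in the same 72 h libraries and 1 read at the 5th instar, a 138-fold ratio (95% counting interval, 24.3 to 5490) (edgeR, adjusted p = 0.00105). Replicate 2 held nearly none of the reads at both. At 000284F, 300277 to 300514, the 72 h libraries had 77, 16 and 16 reads and the 5th-instar libraries none, at least 39.5-fold higher, and at 000421F, 177881 to 178134, they had 60, 30 and 25 reads and the 5th-instar libraries none, at least 41.7-fold higher. Contig 000058F, 648279 to 648633, had 43, 22 and 36 reads in the 72 h libraries and 1 at the 5th instar, a ratio of 110 (19.3 to 4380).

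The largest falls included regions that were strong in the 5th-instar libraries and nearly silent in the libraries labelled 72 h. At contig 000130F, 858237 to 858736, the 72 h libraries had 1.51, 2.96 and 0.657 CPM and the 5th-instar libraries 42.2, 84.3 and 85.6 CPM, a log2 change of -5.36 ± 0.57 (SE; edgeR, adjusted p = 1.51e-06). At contig 000077F, 575586 to 576092, the 72 h libraries had 1.24, 1.15 and 1.15 CPM against 34.8, 61.4 and 62.4 CPM in the 5th-instar libraries (-5.47 ± 0.42, SE; edgeR, adjusted p = 1.5e-07). Every library labelled 72 h held a low level at both regions, even over these libraries at 000077F and not at 000130F. Contig 000037F, 2278697 to 2279437, had 7 reads over the 72 h libraries and 429 over the 5th-instar libraries (log2 change -5.74 ± 0.59, SE; edgeR, adjusted p = 1.05e-06). At 000335F, 393221 to 393481, the 72 h libraries held 2 reads and the 5th-instar libraries 150, a 5th-instar to 72 h ratio of 69 (95% counting interval, 18.8 to 575). At 000454F, 76730 to 76967, the 72 h libraries held no read and the 5th-instar libraries 133, at least 40.8-fold lower at 72 h.

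Absence of all reads in one group was rare among tested intervals, which had passed the low-count filter. Of 258640 tested intervals, 466 had no read in the 5th-instar libraries and 578 had none in the 72 h libraries. Of the former 73 were called rising and of the latter 107 were called falling. These 180 lay on 112 contigs with at most 7 on any one of them. The highest mean was 16.2 CPM at 72 h among those 73, and 11.5 CPM at the 5th instar among those 107. All 180 had at least 1 read in the hindwing libraries labelled prepupa or 6 d, which does not set them apart. Of all hindwing intervals, tested or not, only 1.271% to 9.521% had no read in any single library of those stages.

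At most rising intervals neither prepupa nor 6 d hindwings reached the level of the libraries labelled 72 h. Those 2 groups entered the calls through the shared estimate of spread. Their reads were mostly less concentrated. The strongest 1% of intervals took 15.86% to 17.13% of the reads in the 6 d libraries. In prepupa replicates 1, 2 and 3 the share was 16.49%, 27.59% and 17.13%, against 30.11% to 32.26% in the 72 h libraries. The part of this library-wide difference in the levels below was not tested. The median of the group means over the 22482 rising intervals was 2.18 CPM at the 5th instar, 2.38 at prepupa, 8.41 at 72 h and 2.44 at 6 d. The 72 h mean was the highest of the 4 stages at 96.7% of rising intervals, against 30.2% of all tested intervals. With library totals as the scale these shares were 86.2% and 17.4%. Since these intervals were picked for a 72 h mean above the 5th-instar mean, only the place of prepupa and 6 d in that order is a separate measurement. At 8.88% of rising intervals the prepupa mean and at 14.1% the 6 d mean lay nearer to the 72 h mean than to the 5th-instar mean on the log scale, against 38% and 39.8% of all tested intervals. With library totals as the scale these shares of rising intervals were 21.9% and 34.5%, against 33.3% and 36.9% of all tested intervals, so the gap to all intervals was smaller at both stages and small at 6 d.

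At falling intervals the levels at prepupa and 6 d lay between those of the 5th instar and 72 h by their medians. Over the 12921 falling intervals the median group mean was 5.86 CPM at the 5th instar, 3.15 at prepupa, 1.71 at 72 h and 2.56 at 6 d. The 5th-instar mean was the highest of the 4 at 77.7% of them, against 19.4% of all tested intervals (68% and 14.9% with library totals). Falling intervals were picked for a 5th-instar mean above the 72 h mean, so only prepupa and 6 d give a separate measurement here. The prepupa mean was nearer to the 72 h mean than to the 5th-instar mean at 54.5% of falling intervals and the 6 d mean at 66%. Over all tested intervals these shares were 38% and 39.8%. With library totals as the scale they were 36.6% and 49.8% of falling intervals, against 33.3% and 36.9% of all tested intervals. Both majorities were lost on that scale. The prepupa share then lay close to that of all intervals, while the 6 d share was still above it. Single libraries differed within the prepupa group, where replicate 2 was nearer to the 72 h mean at 44.9% of falling intervals and the other 2 at 61.6% and 63.4%. For the 3 libraries labelled 6 d the shares were 65.8% to 66.7% of falling and 15% to 15.6% of rising intervals.

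Rising and falling intervals were scattered over the assembly, with a limited tendency to lie beside one another. Of 257747 pairs of neighbouring tested intervals, the log2 changes correlated at a Pearson r of 0.244, a value across intervals that share libraries and depth. After a rising interval the next was also rising in 19.3% of cases, against 8.69% of all intervals, and after a falling one the next was falling in 15.7%, against 5%. Where both neighbours were called, 79.4% of 7994 pairs had the same direction. Rises made up 63.5% of all calls, so unrelated calls would also often share a direction, and that share was not computed. Among neighbours r did not fall steadily with the gap between them: it was 0.265 for gaps under 500 bp, 0.206 from 1000 bp to under 2000 bp and 0.283 for gaps of 10000 bp or more. For intervals set at a given distance, whether or not others lay between them, r was 0.136 at about 5000 bp, 0.0898 at 100000 bp and 0.0509 at 500000 bp.

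Unbroken stretches of change were short. Runs of 2 or more consecutive rising intervals held 33.5% of all rises, and the like runs of falling intervals 27.9% of all falls. Of all tested intervals 8.69% rose and 5% fell, and the shares in runs without any clustering were not computed. There were 80 rising and 23 falling runs of 5 or more, and none reached 10. A run of 9 rising intervals spanned 15556 bp on contig 000086F, 602001 to 617556, where the summed level was 175, 123 and 100 CPM in the 72 h libraries and 12.8, 8.9 and 12.6 CPM in the 5th-instar libraries, with log2 changes of single intervals between 2.14 and 4.83. Another of the 4 rising runs of that length lay on contig 000096F, 387119 to 393443, with summed levels of 436, 331 and 377 CPM in the 72 h libraries and 33.9, 52.5 and 40 CPM in the 5th-instar libraries.

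The longest falling run was of 8 intervals on contig 000021F, 1335545 to 1340588, with 14.3, 19.9 and 22.3 CPM in the 72 h libraries and 77.6, 118 and 101 CPM in the 5th-instar libraries, and with log2 changes of -4.20 to -1.73. Falling runs of 6 numbered 3. The one named by the rule lay on contig 000025F, 969164 to 975658, and included the strong falling interval of that contig given above. Its summed level was 46.7, 64.2 and 49.8 CPM in the 72 h libraries and 208, 372 and 324 CPM in the 5th-instar libraries.

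A few windows of 100000 bp were dominated by one direction. Among 3814 windows with at least 20 tested intervals, the median share was 7.32% rising and 3.08% falling. At least 25% of intervals rose in 86 windows and fell in 23, and 150 windows held at least 10% of each. The largest rising share was on contig 000238F, 500001 to 600000, where 41 of 65 intervals rose and none fell. The reads of its 65 intervals summed to 729, 677 and 604 CPM in the 72 h libraries and 177, 160 and 156 CPM in the 5th-instar libraries, with 139 ± 3.72 CPM at prepupa and 200 ± 5.84 CPM at 6 d (SD, n = 3 each). The windows next in order were 000160F, 900001 to 1000000 (20 of 39 rising), 000124F, 1200001 to 1300000 (20 of 44), and 000282F, 200001 to 300000 (28 of 64), and none of the 3 held a falling interval.

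Of the 4 windows with the largest falling share, 3 lay side by side on 1 contig. They covered 000054F from 200001 to 500000. In the one from 400001 to 500000, 42 of 82 intervals fell and 2 rose, and its intervals summed to 315, 312 and 268 CPM in the 72 h libraries and 704, 1120 and 1090 CPM in the 5th-instar libraries. The windows before it had 25 of 69 and 19 of 56 intervals falling, with 2 rising in each. At 300001 to 400000 the summed levels came close, with 231, 252 and 187 CPM in the 72 h libraries against 250, 357 and 427 CPM in the 5th-instar libraries. On 000219F, 500001 to 600000, 16 of 45 intervals fell and none rose, with 69.3 ± 3.54 CPM at 72 h and 227 ± 25.3 CPM at the 5th instar (SD, n = 3 each).

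**Figure D3:**
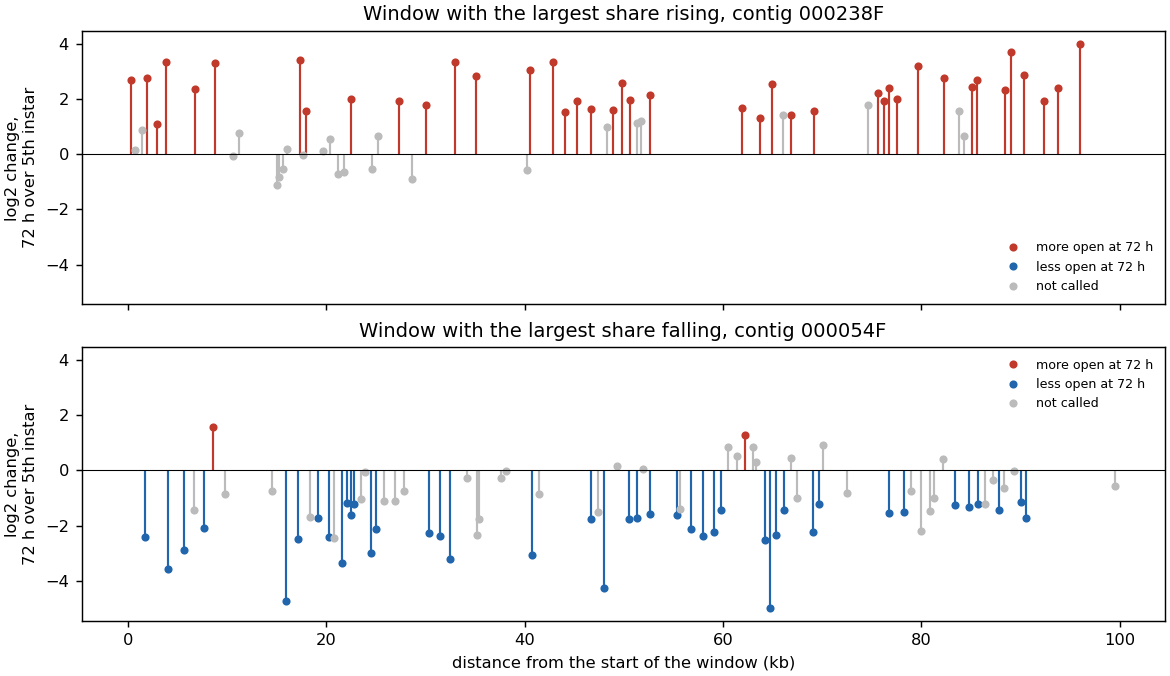
Log2 change of hindwing libraries labelled 72 h over those labelled 5th instar for every tested interval of a window of 100 kb, against its distance from the window's start, with rises in red, falls in blue and uncalled intervals in grey. In the upper window 41 of 65 intervals rose and in the lower 42 of 82 fell, with uncalled intervals between them.

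Entire contigs reached lower shares than the windows named above. Over the 249 contigs with at least 200 tested intervals, rising shares ran from 0.508% to 23.9% around a median of 8.66%, and falling shares from 0% to 24.2% around a median of 4.45%. The highest rising share was on 000238F, with 128 rises and 21 falls among 535 intervals. Contig 000211F followed, with 96 rises and 5 falls among 451.

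The forewing gives a measurement of the same loci in libraries of their own. Of the hindwing calls, 15235 rising intervals (67.8%) and 6922 falling ones (53.6%) had a forewing interval overlapping by at least 80% of both lengths and were tested there, against 42.3% of uncalled intervals. The forewing contrasts of 72 h and of 6 d below share the 3 forewing 5th-instar libraries, so their values are set side by side and not against each other. CPM in this comparison is relative to the reads in matched intervals and runs higher than in the hindwing values above.

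Most of the hindwing changes with a forewing match were called in the same direction in the forewing libraries labelled 6 d. In those labelled 72 h this held for few of the rises and for more of the falls. In the forewing contrast of 6 d with the 5th instar, where 22.4% of 127816 matched intervals were called, 12.1% rising and 10.3% falling (edgeR), 11687 of the 15235 hindwing rises were called rising (76.7%) and 5432 of the 6922 hindwing falls were called falling (78.5%). Calls in the opposite direction numbered 0 and 4, with 1 and 8 at an unadjusted p under 0.05. The median forewing change was 1.63 at the hindwing rises and -1.72 at the hindwing falls, on the log2 scale, against hindwing medians of 1.92 and -1.80. In the forewing contrast of 72 h with the 5th instar, where 9.4% of matched intervals were called, 3.69% rising and 5.71% falling, 1040 hindwing rises were called rising (6.83%) and 527 falling (3.46%). Among the hindwing falls 2898 were called falling (41.9%) and 141 rising (2.04%).

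Over 116689 matched intervals tested in both tables, the hindwing log2 change had a Pearson correlation of 0.82 and a Spearman correlation of 0.763 with the forewing change to 6 d. With the forewing change to 72 h they were 0.236 and 0.145. These describe intervals that share libraries and depth within each wing. At the strong region of 000001F, the forewing libraries had 41.9 ± 10.1 CPM at the 5th instar, 45.2 ± 3.94 at prepupa, 53.9 ± 6.66 at 72 h and 619 ± 52.3 at 6 d, where hindwing libraries labelled 72 h had 666 ± 55.2 CPM on the same scale (SD, n = 3 each). Of the 9 named rises with a forewing match, 9 were called rising in the forewing at 6 d and 2 at 72 h. All 9 matched named falls were called falling in both.

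**Figure D4:**
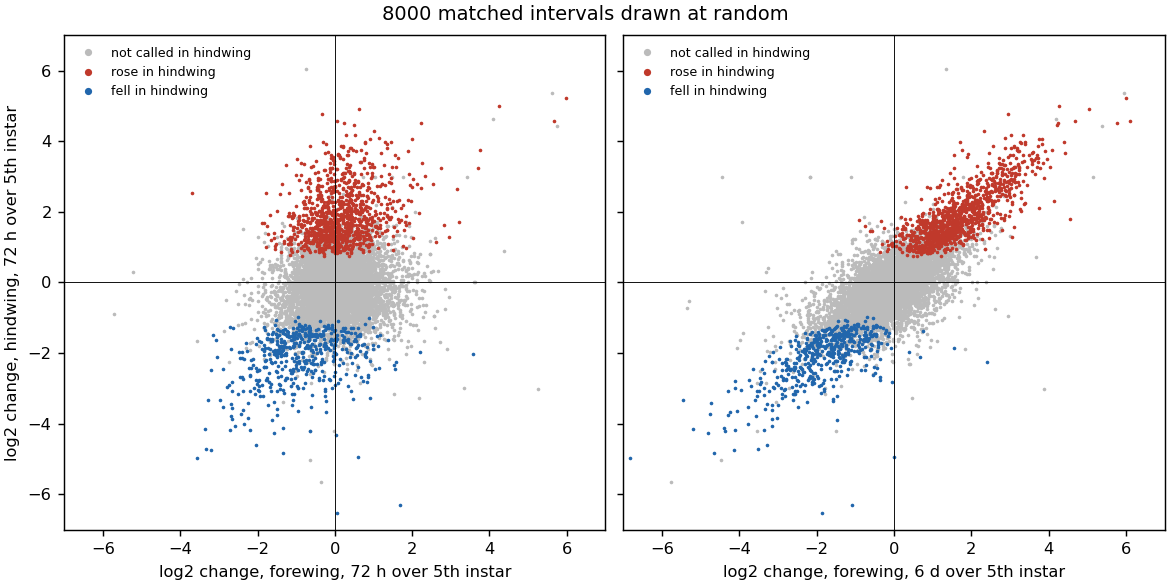
Log2 change of the hindwing (72 h over 5th instar, vertical axes) against that of the forewing for 8000 matched intervals drawn at random, with the forewing group labelled 72 h on the left and the one labelled 6 d on the right, coloured by the hindwing call. The points lie along the diagonal on the right (Pearson r = 0.82 over all 116689) and show little relation on the left (0.236).

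The difference between the wings was tested for every matched interval in one fit of all 24 libraries. Under the same labels, the hindwing change and the forewing change differed at 15334 of 127816 intervals (12%; edgeR, adjusted p under 0.05), with the hindwing change higher at 9390 and lower at 5944. Among the matched hindwing rises 7510 differed (49.3%), the hindwing change being the greater at 7495, and among the matched falls 2121 differed (30.6%). With the forewing group labelled 6 d in place of 72 h, 2 of 127816 intervals differed (0.00156%), both with a lower hindwing change, and 5483 (4.29%) at an unadjusted p under 0.05. None of the 15235 matched rises differed (637 at an unadjusted p under 0.05), and the 2 calls were among the matched falls. At the matched rises, which were chosen for their hindwing change, the median difference to the forewing change to 6 d was 0.18 on the log2 scale, with a median standard error of 0.55, and at 8.76% of them it was at least 2-fold. A low count of calls therefore does not show that the changes are equal.

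The intervals with the lowest adjusted p under the same labels were strong in one wing group and low in the other. On contig 000395F, 118191 to 119157 had 442, 386 and 447 CPM in the hindwing libraries labelled 72 h and 21.3, 18 and 23.3 in those labelled 5th instar. Its forewing counterpart had 14.1, 17.4 and 11.7 CPM at 72 h and 21.6, 14.6 and 22.9 at the 5th instar, and the changes differed by 4.79 ± 0.33 on the log2 scale (SE; edgeR, adjusted p = 2.33e-09). Forewing libraries labelled 6 d had 437, 393 and 460 CPM there. In the other direction, contig 000055F, 1360880 to 1363024, had 10 ± 3.47 CPM in hindwing 72 h and 25.7 ± 2.61 in hindwing 5th-instar libraries, but 629 ± 113 in forewing 72 h and 26.3 ± 5.94 in forewing 5th-instar libraries (SD, n = 3 each). That difference was -5.92 ± 0.5 (SE; edgeR, adjusted p = 2.35e-08), and the forewing level at 6 d was 10.6 ± 4.1 CPM. In hindwing libraries labelled prepupa the same interval had 75.4, 202 and 82.1 CPM, replicate 2 being the highest.

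Both intervals whose hindwing change differed from the forewing change to 6 d lay on contig 000025F. That from 975254 to 975658 is the last interval of the falling run described above. It had 5.31, 11.1 and 3.63 CPM in the hindwing 72 h libraries and 28.1, 31.7 and 34.9 in the hindwing 5th-instar libraries, whereas the forewing had 7.53, 23.9 and 6.26 CPM at 6 d and 1.8, 2.83 and 2.37 at the 5th instar. The hindwing change was -2.24 and the forewing change 2.41, which differ by -4.65 ± 0.66 on the log2 scale (SE; edgeR, adjusted p = 0.0187). That from 1072957 to 1073604 had 7.02 ± 1.61 CPM in hindwing 72 h and 15.3 ± 1.81 in hindwing 5th-instar libraries, and 11.4 ± 1.98 in forewing 6 d and 4.55 ± 0.384 in forewing 5th-instar libraries (SD, n = 3 each), a difference of -2.44 ± 0.38 (SE; edgeR, adjusted p = 0.0437). The 5th-instar hindwing level was above the 5th-instar forewing level in every library at both intervals. The call at 1072957 was kept in 2 of 16 alternatives and that at 975254 in 8 of 16. The call at 975254 was lost without hindwing 5th-instar replicate 2 or 3, hindwing 72 h replicate 1 or 3, any forewing 5th-instar replicate, or forewing 6 d replicate 2 (edgeR, adjusted p = 0.0568 to 0.152). That at 1072957 was lost when any single library was left out (edgeR, adjusted p = 0.0593 to 0.174) and with library totals (0.0735). It was also lost with the replicate number as a block. The differences stayed between -5.22 and -3.80 at 975254 and between -2.55 and -2.27 at 1072957. With a block for each pair of same-numbered libraries of the wings, an alternative chosen after seeing the data, both stayed called (edgeR, adjusted p = 9.21e-05 at 975254 and 0.033 at 1072957). The block gave 3 calls in all, the other being at the first interval of the same falling run, 969164 to 969410, with a difference of -3.32 ± 0.52 (SE; edgeR, adjusted p = 0.0346, against 0.128 without the block). In the other direction the intervals with the lowest adjusted p, on 000027F from 519692 and on 000099F from 829588, had differences of 3.19 and 2.71 (edgeR, adjusted p = 0.128 for both) and were not called.

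**Figure D5:**
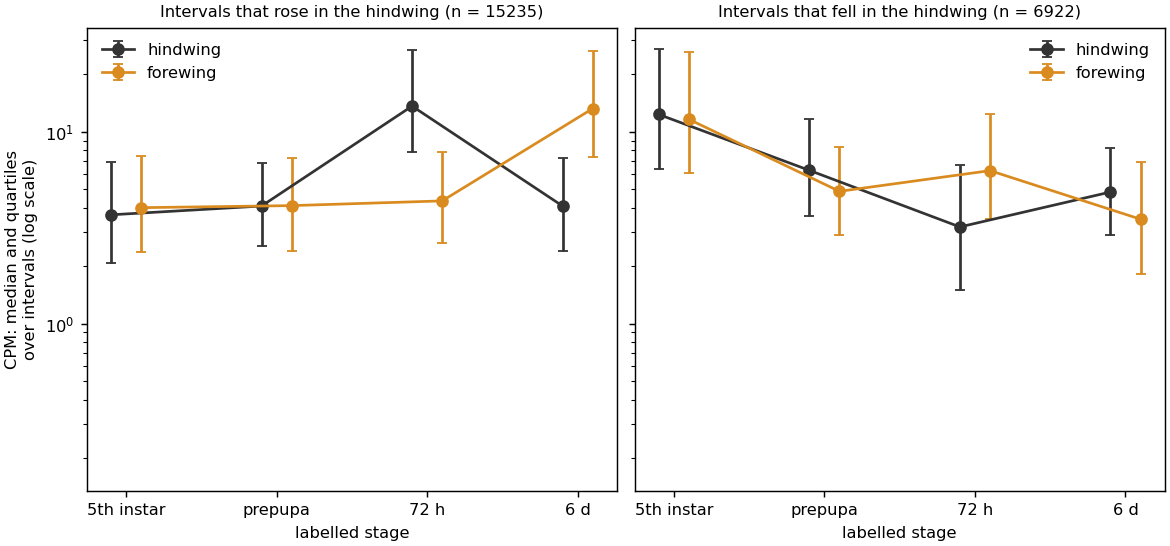
Median CPM with quartiles (bars) over the 15235 matched intervals that rose and the 6922 that fell in the hindwing, by labelled stage, on a log scale, for hindwing (black) and forewing (orange) group means. The hindwing median of rising intervals is highest at 72 h (13.6 CPM) and the forewing median at 6 d (13.2 CPM), and the hindwing median of falling intervals is lowest at 72 h (3.19 CPM) and the forewing median at 6 d (3.5 CPM).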

How the data were processed

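Open chromatin was assayed by ATAC-seq with Tn5 on nuclei of whole wing tissue, per the labels' protocols. The authors deposited raw read counts per peak interval, in one table per wing with its own intervals. Bowtie2 and deepTools are named, with neither version nor role, per the submitters' processing notes. Not given in the sources used here are the genome build, peak caller, read filters, handling of duplicates, shift of read ends and whether peaks were called on pooled libraries. Duplicates left in the counts would make their true precision lower than the counting intervals and floors assume. The edgeR tests take their spread from the libraries themselves.

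Libraries were grouped by labelled tissue and stage. Replicates are numbered in the labels and not said to come from separate animals. The p-values therefore reflect nothing beyond the spread of these samples, and that spread may be technical. The members, the rule for named intervals and the windows were chosen with earlier results of these data known. Positions are printed 1-based, 1 above the starts in the tables.

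Counts as deposited were tested with edgeR 4.0.16 (quasi-likelihood F test) in R 4.3.3, with limma 3.58.1, data.table version 1.17.8 and GenomicRanges 1.54.1. All 12 hindwing libraries entered the fit and shared an estimate of spread, and the contrast was 72 h minus 5th instar. The filter was filterByExpr with a minimum count of 10 and a minimum total of 15, libraries were scaled by TMM (factors 0.7345 to 1.056 in the 6 libraries), and p-values were adjusted by Benjamini-Hochberg over all tested intervals. The standard error is the log2 change divided by the square root of F. Intervals of the wings were matched by a reciprocal overlap of at least 80% (136423 pairs, 127816 tested) and the changes compared in one fit of 24 libraries. Over 125855 matched intervals, deviations from the group means of same-numbered libraries correlated at 0.391 to 0.487 between hindwing 72 h and forewing 6 d and at 0.274 to 0.341 between the 5th-instar groups, so these numbers pair the wings. Between the groups labelled 72 h they correlated at -0.0432 to -0.00729.

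The rule for named intervals required a call, no overlap between the 6 libraries and at least 5 CPM in the higher group. It took the 6 largest changes and then the 6 strongest intervals with at least 4-fold change in each direction, 1 per contig, the 4 strongest uncalled intervals with a log2 change under 0.25 in size, 4 windows and 2 runs in each direction, and up to 2 intervals in each direction per wing difference. Alternatives were other scalings, filters, DESeq2 1.42.0, fewer libraries in the fit and each replicate left out.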

Additional observations from a re-analysis of the deposited data

Results flagged for a closer look

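The matched intervals at which the wings differ are listed here because a test of the difference itself, edgeR's quasi-likelihood F test over 24 libraries, called them. Under the same stage labels, the hindwing change (72 h minus 5th instar) differed from the forewing change at 15334 of 127816 matched intervals. With the forewing libraries labelled 6 d in place of 72 h, 2 differed. Both comparisons share the 6 hindwing and the 3 forewing 5th-instar libraries, and they rest on stage names that did not line up between the wings.

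At 000395F, 118191 to 119157, and 000191F, 495646 to 496091, the hindwing change was above the forewing change by 4.79 and 4.95 on the log2 scale. The second of these had 197, 174 and 165 CPM in hindwing 72 h libraries and 8.94, 9.57 and 9.98 in hindwing 5th-instar libraries, and 4.22, 5.24 and 4.18 CPM in forewing 72 h libraries and 6.16, 7.63 and 8.7 in forewing 5th-instar libraries. At 000055F, 1360880 to 1363024, and 000026F, 1763701 to 1765028, the differences were -5.92 and -4.22. The second of these had 23.6 ± 2.76 CPM in hindwing 72 h and 52.8 ± 4.56 in hindwing 5th-instar libraries, and 444 ± 51.3 in forewing 72 h and 53.2 ± 8.15 in forewing 5th-instar libraries (SD, n = 3 each). Relative to the forewing change to 6 d, the intervals on 000025F starting at 975254 and 1072957 differed by -4.65 and -2.44.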

How the results depend on the processing

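Calls in the hindwing kept their direction in every alternative where they were called again. The 24 named intervals that changed stayed called in each of the 14 to 17 alternatives in which they were followed. The test against a minimum fold of 2 was not among these. The split between rises and falls depended most on the scale, with 20062 falls and 16659 rises by library totals. Tested against a minimum fold of 2, 8309 rises and 3446 falls remained in number, and with at least 50 counts in 3 libraries (55082 intervals tested) there were 12096 rises and 8769 falls. DESeq2 gave 21226 rises and 13021 falls. Leaving out each replicate gave 16618 to 21269 rises and 8692 to 11361 falls. Alternatives chosen after seeing the data left out the prepupa libraries from the fit (23720 rises, 14262 falls) or prepupa replicate 2 alone (25826 and 15234). With loess offsets the steady intervals on 000199F and 000023F were called lower at 72 h (log2 change -0.35 and -0.39, edgeR, adjusted p = 0.0341 and 0.00964). The cause of these shifts was not tested.

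Wing differences under the same labels numbered 7003 of 30177 intervals with a reciprocal overlap of 95%, fewer being tested, and 11938 to 15327 with each replicate left out. Differences from the forewing change to 6 d numbered 1 with library totals, 0 at 95% overlap, 5 with at least 50 counts in 3 libraries (where those on 000027F and 000099F and one on 000041F from 296111 were called, edgeR, adjusted p = 0.0354 for each), and 0 to 3 with each replicate left out.

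Between the hindwing groups compared, replicate numbers did not pair the samples, since deviations of same-numbered libraries correlated at -0.0732, -0.0704 and -0.028 over 209277 intervals. With the replicate number as a block, 21309 intervals rose and 11856 fell, 15986 wing differences were called under the same labels, and 1 was called against the forewing change to 6 d. With a block for each pair of wings these were 14605 and 3. Weak intervals are limited by depth: the median tested interval held 36 reads over the 72 h libraries and 37 over the 5th-instar libraries.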
